A study of Mus musculus with 13 samples.

Results

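The genes described here are 8 genes of cholesterol synthesis and its control, Hmgcs1, Idi1, Fdft1, Sqle, Lss, Cyp51, Insig1 and Srebf2, out of 24421 genes counted. They were chosen as a list of gene symbols, with no measured value in the rule, although earlier results of these data were known when the list was made, and each was compared between cells with and without doxycycline (dox). Although the list was put together under the name of cholesterol synthesis and uptake, 6 of its members are enzymes of synthesis (Hmgcs1, Idi1, Fdft1, Sqle, Lss and Cyp51), 2 are regulators (Insig1 and Srebf2), and 0 are receptors of uptake, so uptake genes are described from a separate list. Hmgcs1 had 0 reads in all 4 libraries, which leaves 7 members with values.

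The cells were of the female mouse ES cell line F1-2.1, from a CAST/Ei x 129/Sv/Jae cross, grown on irradiated mouse embryonic fibroblasts. All 4 cultures were of 1 clone (A2) with a Tet-on transgene for CTCF S224E, a CTCF with glutamate in place of a serine that mimics phosphorylation, and all cells kept their endogenous CTCF. The +dox cells were grown for 6 days with 1 μg/mL dox and the −dox cells without it, with 2 biological replicates (replicates 1 and 2) of each. RNA libraries with dox and no transgene, or with a wild-type or S224A transgene, were not analysed here, so an effect of dox and an effect of S224E cannot be told apart.

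Cells make cholesterol from acetyl-CoA through HMG-CoA, mevalonate, isoprenoid diphosphates, squalene and lanosterol, and they also take it up from lipoproteins. Both routes are set by SREBP-2, the transcription factor made from Srebf2. When sterols are plentiful, SREBP-2 and its escort Scap are held in the endoplasmic reticulum by Insig proteins. When sterols are low, SREBP-2 moves to the Golgi, is cut by proteases and switches on the genes of synthesis and uptake, together with Insig1 and Srebf2 themselves. In ES cell cultures the serum in the medium is itself a source of sterols.

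The binding site of SREBP-2 often lies beside sites for NF-Y and Sp1 in the promoters of these genes. Promoter windows from RefSeq (GRCm38.p6, 250 bases before to 50 bases after the annotated start) were matched for 6 of the 8 members, all but Sqle and Fdft1. They were searched on both strands for TCACNCCAC (sterol regulatory element), CCAAT (NF-Y) and GGGCGG (Sp1), none of which contains another. TCACNCCAC was found in 1 of the 6 windows, that of Hmgcs1, and in 1.24% of all 32851 promoter windows. A shorter form, TCACNNCA, which is the start of the longer motif with a further free position and was chosen after the first search, was found in the windows of Hmgcs1, Srebf2 and Cyp51, and in 13.8% of all windows. The 5 stretches below are shown because they hold these letters or, for Insig1 and Lss, the CCAAT letters without them. The window of Idi1, which also held CCAAT and not TCACNNCA, is not shown. The stretches run 5′ to 3′ along the strand of the gene, lie wholly before the start, and have the match in capitals (ATTGG is CCAAT read on the other strand).
Hmgcs1: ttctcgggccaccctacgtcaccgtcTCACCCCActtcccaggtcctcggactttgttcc
Srebf2: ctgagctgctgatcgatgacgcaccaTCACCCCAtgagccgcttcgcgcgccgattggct
Cyp51: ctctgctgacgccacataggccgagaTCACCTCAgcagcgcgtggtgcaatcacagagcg
Insig1: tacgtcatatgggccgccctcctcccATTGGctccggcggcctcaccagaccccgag
Lss: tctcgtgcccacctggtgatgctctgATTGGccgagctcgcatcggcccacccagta

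The match starts 137 bases before the start of Hmgcs1, 162 before that of Srebf2, 88 before that of Cyp51, 216 before that of Insig1 and 62 before that of Lss. By exact match of the windows to the genome build of the counts (mm9, NCBIM37), the stretches lie at chr15:81977511-81977570 (Srebf2, plus strand), chr5:4104752-4104811 (Cyp51, minus strand), chr5:28397710-28397766 (Insig1, plus strand) and chr10:75994262-75994318 (Lss, plus strand). The stretch of Hmgcs1 lies at chr13:119690188-119690247 in GRCm38.p6, plus strand. CCAAT was found in all 6 windows, against 37.4% of all windows and 37.6% of the windows of genes that reached 1 CPM on average. GGGCGG was also found in all 6, against 35.7% of all windows and 62.6% of those of expressed genes. These matches describe letters near the start, not bound sites.

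The libraries held between 22899107 and 30206085 reads on exons. Levels are given in CPM, read counts scaled to a common library size with the TMM method. Over 13911 genes with reads enough to compare, replicates differed from each other by more than sampling of reads would give (mean squared deviation in units of the Poisson variance, 19.2 in +dox and 13.2 in −dox cells). All 10 ES cell markers examined were above 1 CPM in each library. The transgene could not be followed in the counts per gene, which do not separate it from endogenous Ctcf, with 327 and 329 CPM in the +dox and 295 and 304 CPM in the −dox libraries (log2 fold change 0.13, adjusted p = 0.475 by edgeR's quasi-likelihood test).

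Most members were lower with dox by a modest amount, down to 67.0% of the −dox level in Insig1. Of the 7 members with reads, 6 had both +dox libraries below both −dox libraries, a pattern that 23.7% of all 20044 genes tested showed. Their log2 fold changes had a median of -0.27, against 0.01 over all genes tested. At an adjusted p under 0.01, edgeR's quasi-likelihood test called 0 of the 7, while it called 0.599% of all genes in either direction and 0.519% as lower with dox. At an unadjusted p under 0.05 it found 4 of the 7 lower, against 9.31% of all genes, and at an adjusted p under 0.05 it called 3 (Sqle, Cyp51 and Insig1), against 1.93% of all genes called lower. DESeq2, the tool the study used, called 2 at an adjusted p under 0.01 (Cyp51 and Insig1). It called lower 1.86% of the 13826 genes that it gave an adjusted p. The differences were thus small and in the same direction in nearly all members.

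**Figure D1:**
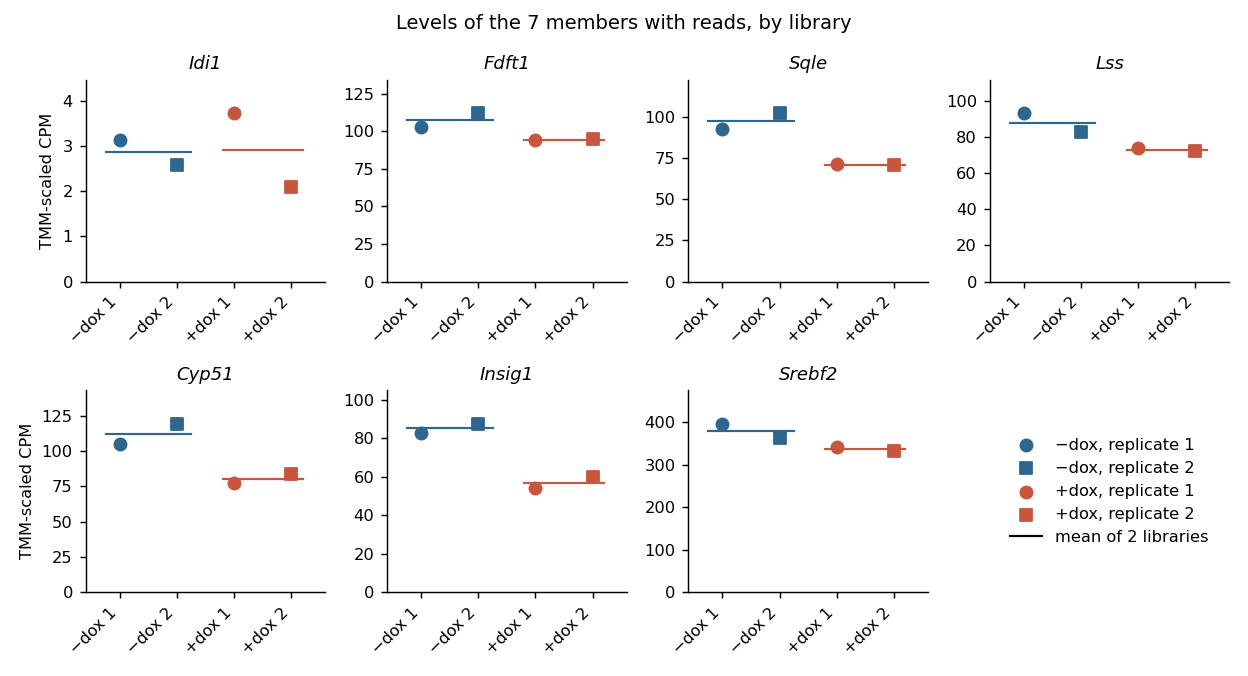
Level of each of the 7 members with reads in TMM-scaled CPM (vertical axis, from 0, with its own scale in each panel) in the 2 −dox libraries (blue) and the 2 +dox libraries (red), with circles for replicate 1, squares for replicate 2 and lines for the means. In 6 panels both red points lie below both blue points, while in Idi1 the red points, at 3.73 and 2.10 CPM, lie on either side of the blue ones.

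Along the pathway, the first member is Hmgcs1, the synthase that makes HMG-CoA. Its 0 reads are not evidence of absent RNA. Its row in the counts lies on an unplaced contig of chromosome 13 (chr13_random, 308437 to 326346, minus strand), and of the 72 genes on such contigs 71 had 0 reads in all libraries, against 17.7% of the genes placed on chromosomes. The promoter window of Hmgcs1 matched exactly at 2 places in NCBIM37, both on unplaced contigs. No level or change is therefore given for it.

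Idi1 makes the activated 5-carbon unit from which isoprenoids are joined by isomerizing isopentenyl diphosphate (chromosome 13, 8884852 to 8891642, plus strand). It had 84 and 48 reads in the +dox and 96 and 65 reads in the −dox libraries, or 3.73 and 2.10 CPM against 3.14 and 2.59 CPM. The groups overlapped, and replicate 1 was higher with dox while replicate 2 was lower (within-replicate log2 changes of 0.24 and -0.29). The log2 fold change was 0.02 with a 95% interval from -0.67 to 0.71, wide enough to hold the changes of all other members. An Idi1 transcript of 2866 bases aligned over 86.5% of its length at 99.3% identity to a second place on chromosome 2, and over 86.6% at 95.2% identity to chromosome 5. Since the authors counted only uniquely aligned reads, the count of Idi1 is uncertain.

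Fdft1, squalene synthase, joins farnesyl diphosphate into squalene, the first step that is committed to sterols (chromosome 14, 63763988 to 63798415, minus strand). It stood at 94.2 and 95.0 CPM with dox and 103 and 112 CPM without. The groups did not overlap, but the gap was small (log2 fold change -0.18 ± 0.10 SE, 95% interval from -0.40 to 0.03, adjusted p = 0.377 by edgeR's quasi-likelihood test). A further place on chromosome 14 matched 56.3% of its transcript at 97.4% identity, and up to 769 bases of an exon overlap the gene Ctsb on the opposite strand. Whether the counting used the strand is not given in the sources used here, so part of this count is uncertain.

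Sqle, squalene epoxidase, adds the oxygen that later becomes the hydroxyl group of cholesterol and is a control point of the pathway (chromosome 15, 59146647 to 59162748, plus strand). It had 71.2 and 70.7 CPM with dox and 92.4 and 102 CPM without. The +dox libraries were almost equal to each other and held 73.2% of the −dox level. The log2 fold change was -0.45 ± 0.10 (SE), at -0.38 in replicate 1 and -0.52 in replicate 2, with an adjusted p of 0.0393 by edgeR's quasi-likelihood test and 0.011 by DESeq2. With the replicate number as a block the adjusted p was 0.00796 in edgeR, where 3 members were called against 2.34% of all genes called lower. For Sqle it was 0.0385 in DESeq2 with the same block. In edgeR without the block it was 0.144 with adjusted deviances and 0.0735 with the filterByExpr filter.

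Lss, lanosterol synthase, closes the rings to give the first sterol (chromosome 10, 75994350 to 76019884, plus strand). It stood at 73.9 and 72.0 CPM with dox and at 93.0 and 82.9 CPM without. These groups did not overlap, though the −dox libraries differed from each other by about as much as replicate 2 did from the +dox libraries (log2 fold change -0.27 ± 0.11 SE, 95% interval from -0.50 to -0.04, adjusted p = 0.196 by edgeR's quasi-likelihood test). The gene 4930483K19Rik overlaps an exon of Lss by up to 150 bases on the opposite strand.

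Cyp51, the demethylase that acts on lanosterol, had a decrease close to that of Sqle (chromosome 5, 4080674 to 4104697, minus strand). Its levels were 77.0 and 83.6 CPM with dox and 105 and 119 CPM without. The groups were well apart, with +dox at 71.7% of −dox (log2 fold change -0.48 ± 0.11 SE, adjusted p = 0.035 by edgeR's quasi-likelihood test and 0.00803 by DESeq2). The change was -0.45 in replicate 1 and -0.51 in replicate 2. In edgeR its adjusted p was 0.00374 with the replicate block and 0.15 with adjusted deviances. With 1 library left out, so that a condition is a lone library assumed to vary like the other, it was 0.0284 and 0.00259 without +dox replicate 1 or 2, and 0.55 and 0.67 without −dox replicate 1 or 2.

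The regulators moved by unequal amounts. Insig1, which retains SREBP-2 in the endoplasmic reticulum and is itself one of its best known targets (chromosome 5, 28397952 to 28405202, plus strand), had 54.4 and 59.8 CPM with dox and 82.9 and 87.5 CPM without. Both +dox libraries were far below both −dox libraries, at 67.0% of their level, the largest difference among the 7 members. The log2 fold change was -0.58 ± 0.11 (SE), at -0.61 and -0.55 in replicates 1 and 2, with an adjusted p of 0.0189 by edgeR's quasi-likelihood test and 0.000735 by DESeq2. Its edgeR adjusted p was 0.00136 with the replicate block, 0.122 with adjusted deviances and 0.05 with the filterByExpr filter. It was 0.00806 and 0.000354 without +dox replicate 1 or 2, and 0.55 and 0.67 without −dox replicate 1 or 2, again with a lone library in a condition.

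Srebf2, the gene of SREBP-2 (chromosome 15, 81977699 to 82035390, plus strand), had 340 and 331 CPM with dox and 395 and 362 CPM without. The groups did not overlap, and the +dox mean was 88.6% of the −dox mean (log2 fold change -0.18 ± 0.09 SE, 95% interval from -0.37 to 0.02, adjusted p = 0.333 by edgeR's quasi-likelihood test). Its change was closer to those of Fdft1 and Lss than to that of Insig1.

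**Figure D2:**
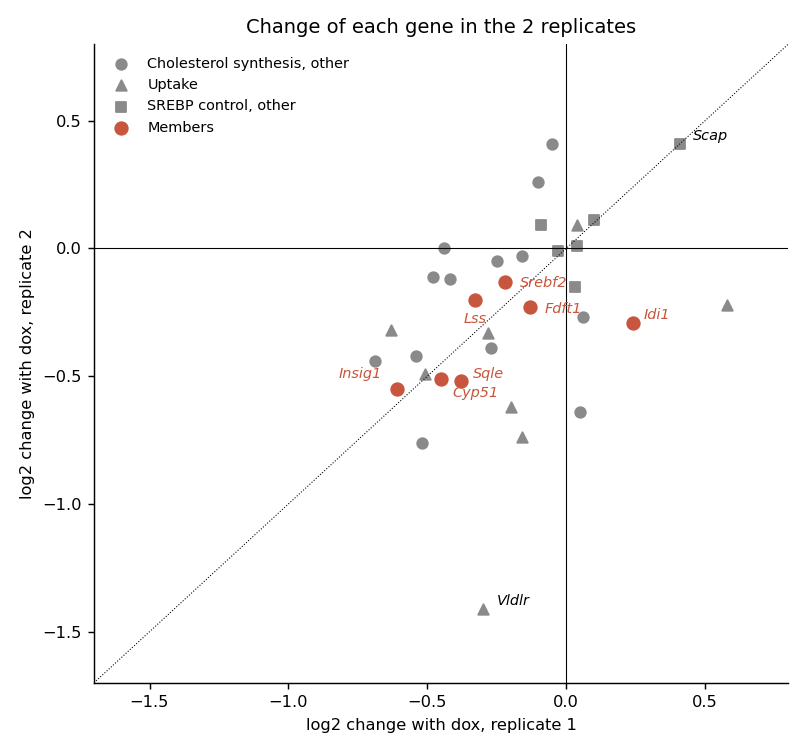
Log2 change with dox in replicate 1 (horizontal) against replicate 2 (vertical) for the members (red) and the other genes of cholesterol synthesis (grey circles), uptake (triangles) and SREBP control (squares), with the line of equal change dotted and Hmgcs1 and Idi2 left out. The members other than Idi1 lie below 0 in both replicates, from Fdft1 at -0.13 and -0.23 to Insig1 at -0.61 and -0.55.

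Among themselves the members covered a wide range of levels. Per kb of transcript, in −dox cells, Srebf2 was the highest at 83.2 ± 5.07 CPM per kb (SD, n = 2), followed by Sqle at 35.5 ± 2.37, Insig1 at 32.3 ± 1.24, Fdft1 at 29.1 ± 1.60, Cyp51 at 25.8 ± 2.30, Lss at 14.0 ± 1.13 and Idi1 at 1.00 ± 0.137. The gap between Sqle and Insig1 and that between Fdft1 and Cyp51 were smaller than the sum of their SDs, so the order within these pairs is not settled. With dox the levels per kb were 73.7 for Srebf2, 25.9 for Sqle, 25.7 for Fdft1, 21.6 for Insig1, 18.5 for Cyp51, 11.6 for Lss and 1.02 for Idi1. Insig1 thus stood above Fdft1 without dox and below it with dox. Summed over the list, the members' level was 714 CPM in both +dox libraries and 874 and 867 CPM in the −dox libraries. The largest part of this sum was Srebf2, at 340 and 331 CPM with dox and 395 and 362 CPM without, and Hmgcs1 entered as 0.

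**Figure D3:**
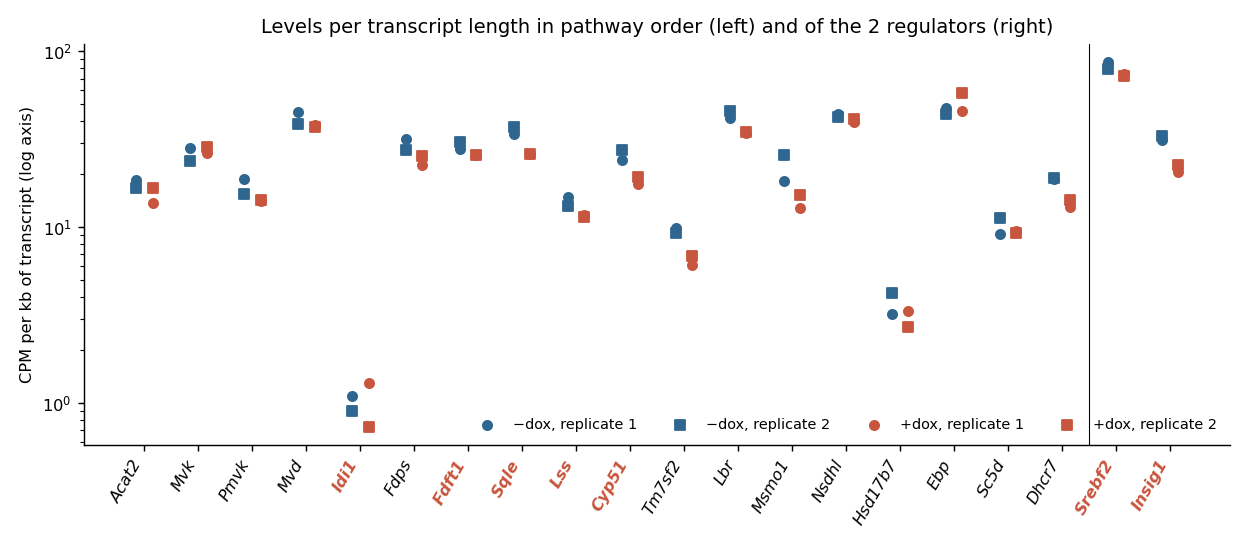
Levels in CPM per kb of transcript (log axis) of enzymes of cholesterol synthesis in pathway order and of the regulators Srebf2 and Insig1, for each of the 4 libraries, with members' names in bold red. Most enzymes lie within about a factor of 10 of each other, Idi1 lies at about 1 CPM per kb, and the red +dox points sit under the blue −dox points for most genes.

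The pathway of synthesis was examined with 20 enzymes, the 6 members among them. With Hmgcs1 left out for its 0 reads, 15 of 19 had a log2 fold change below 0, and the median was -0.27. In 12 of 19 both +dox libraries were below both −dox libraries, against 23.7% of all genes. In 1 both were above (Idi2, which had at most 0.0876 CPM in any library), against 23.3%. EdgeR called 0 of 19 at an adjusted p under 0.01, and 8 had an unadjusted p under 0.05, all lower (against the 9.31% of all genes). DESeq2 called 1 (Cyp51), against 1.86% called lower of the 13826 genes that it gave an adjusted p. With the members left out, 8 of 14 enzymes were lower without overlap, with a median of -0.25 and 0 calls by either test, and 5 had an unadjusted p under 0.05.

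Among these other enzymes, Msmo1, which removes methyl groups from sterols after Cyp51, had 23.4 and 27.5 CPM with dox and 33.5 and 46.7 CPM without (log2 fold change -0.65, adjusted p = 0.0623 by edgeR). Dhcr7, the last reductase of one branch, had 36.5 and 39.9 CPM against 53.1 and 53.5 CPM (log2 fold change -0.48, adjusted p = 0.0558 by edgeR). The sterol reductases Tm7sf2 and Lbr, which take the product of Cyp51, were lower by similar or smaller amounts, with log2 fold changes of -0.57 and -0.33. The gene 1110014N23Rik overlaps an exon of Tm7sf2 by up to 532 bases on the same strand, so part of the Tm7sf2 count is uncertain.

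The remaining enzymes stayed closer to 0. The kinases and decarboxylase of the mevalonate steps had log2 fold changes of 0.08 (Mvk), -0.28 (Pmvk) and -0.15 (Mvd), and Acat2, at the entry of the pathway, had -0.21. A second place on chromosome 17 matched 82.1% of the Acat2 transcript at 98.6% identity, so its count is uncertain too. Fdps, which makes farnesyl diphosphate, had -0.30, but other places in the genome match 94.1% of its transcript at 98.8% identity and 94.2% at 95.9%, so its count of unique reads is uncertain as for Idi1. Of the late enzymes, Nsdhl (-0.09), Hsd17b7 (-0.30) and Sc5d (-0.11) were below 0 and Ebp (0.18) above it. Their adjusted p-values by edgeR's test ran from 0.271 for Fdps to 0.796 for Mvk.

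**Figure D4:**
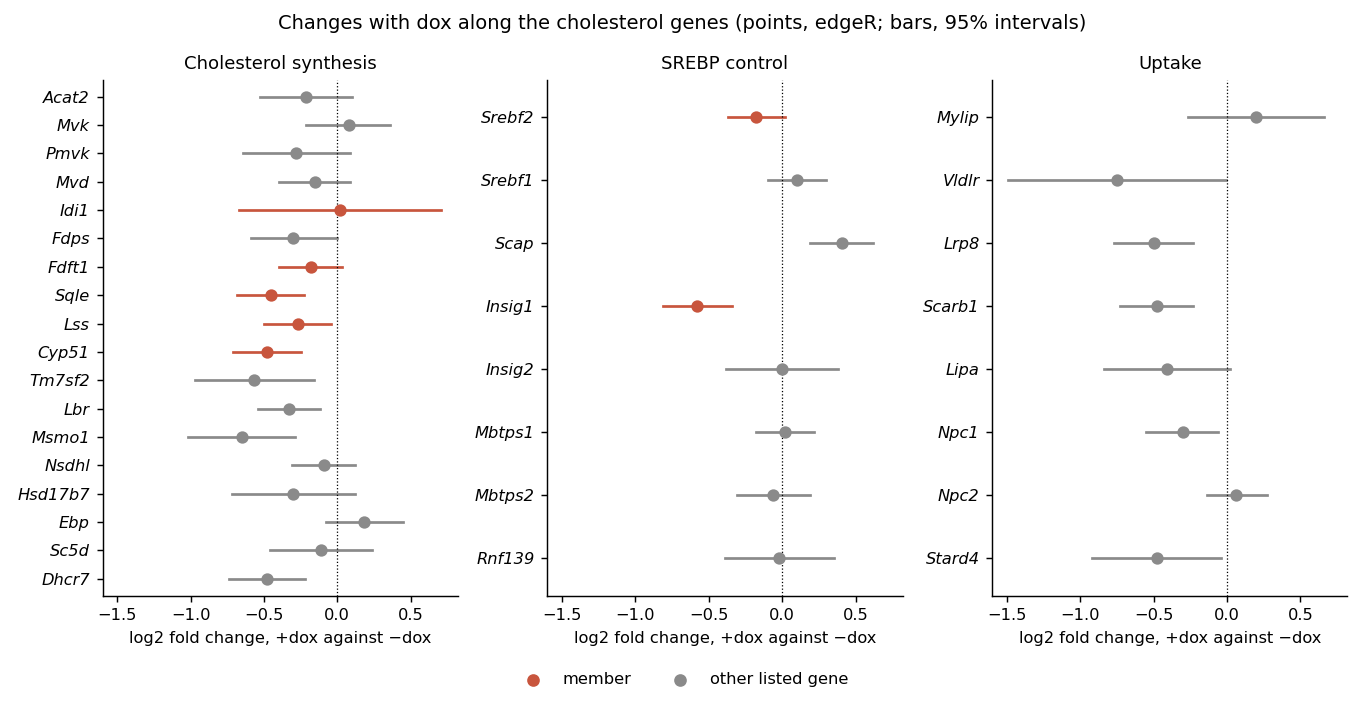
Log2 fold changes, +dox against −dox (horizontal axis), with 95% intervals (bars) for cholesterol synthesis in pathway order, SREBP control and uptake, where members are red and other genes grey. Hmgcs1 and Idi2 are not drawn, and most points of synthesis and uptake lie left of 0, while in SREBP control Insig1, at -0.58, and Scap, at 0.41, lie on opposite sides of it.

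Control of SREBP was followed in 8 genes, of which Srebf2 and Insig1 are members. Of the other 6, 0 were lower without overlap and 2 were higher without overlap (Srebf1 and Scap), against 23.3% of all genes tested. EdgeR called 0 of the 8 at an adjusted p under 0.01, 2 had an unadjusted p under 0.05 (Insig1 lower, and Scap higher, as 8.48% of all genes were), and DESeq2 called Insig1. Scap, the escort of SREBP-2, had 127 and 118 CPM with dox and 95.7 and 89.3 CPM without, opposite in direction to Insig1 (log2 fold change 0.41 ± 0.10 SE, adjusted p = 0.0515 by edgeR's quasi-likelihood test and 0.0156 by DESeq2). The transcript counted for Scap differs between the tables of replicates 1 and 2, and the change was 0.41 in each. A gene on the opposite strand, 5830462I19Rik, overlaps an exon of Scap by up to 327 bases.

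Insig2, the paralogue that is not a strong SREBP-2 target, had a log2 fold change of 0.00 ± 0.17 (SE), on 13.1 and 14.5 CPM with dox and 14.0 and 13.6 CPM without. Srebf1, which makes the factor that favours fatty acid genes, had 0.10 ± 0.09 (SE), and the transcript counted for it differs between replicates 1 and 2. The proteases Mbtps1 and Mbtps2 had 0.02 and -0.06, and Rnf139, a ubiquitin ligase of the endoplasmic reticulum, had -0.02. The gene Yy2 overlaps an exon of Mbtps2 by up to 2867 bases on the same strand, so part of the Mbtps2 count is uncertain. Within this group, the 95% interval thus lay below 0 in Insig1 and above 0 in Scap. These intervals are not adjusted for the number of genes tested, and Scap was called by neither test at an adjusted p under 0.01.

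Uptake was described with 8 genes, none of them a member. In 6 of 8 both +dox libraries were below both −dox libraries, against 23.7% of all genes. The median log2 fold change was -0.44, against 0.01 over all genes. EdgeR and DESeq2 each called 0 of the 8 at an adjusted p under 0.01, and 5 had an unadjusted p under 0.05, all lower, against 9.31% of all genes.

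Scarb1, which takes cholesterol from HDL, had 60.8 and 62.8 CPM with dox and 93.9 and 78.7 CPM without (log2 fold change -0.48, adjusted p = 0.0465 by edgeR's quasi-likelihood test). Lrp8, a lipoprotein receptor, had 31.1 and 32.7 CPM against 44.5 and 45.8 CPM (log2 fold change -0.50, adjusted p = 0.0548 by edgeR). Vldlr, another lipoprotein receptor, had 4.18 and 1.75 CPM against 5.17 and 4.78 CPM, with unequal changes of -0.30 and -1.41 in the replicates. It had 40 reads in +dox replicate 2, and the transcript counted for it differs between replicates 1 and 2. The lysosomal lipase Lipa (-0.41), the lysosomal transporter Npc1 (-0.30) and the sterol carrier Stard4 (-0.48) were below 0 with adjusted p-values from 0.178 to 0.312 by edgeR's test. The transcript counted for Lipa also differs between replicates 1 and 2. Mylip, a ubiquitin ligase, and Npc2, a lysosomal sterol-binding protein, had log2 fold changes of 0.20 and 0.06.

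Storage and efflux were taken from 12 genes. In 4 of them both +dox libraries were below both −dox libraries and in 3 both were above, against 23.7% and 23.3% of all genes. EdgeR and DESeq2 each called 1 lower at an adjusted p under 0.01. Over all genes tested edgeR called 0.519% lower, and DESeq2 1.86% of the 13826 genes that it gave an adjusted p. Soat1, which esterifies cholesterol for storage (chromosome 1, 158358239 to 158404459, minus strand), fell from 40.8 and 42.8 CPM to 20.3 and 17.0 CPM (log2 fold change -1.16 ± 0.14 SE, adjusted p = 0.00177 by edgeR's quasi-likelihood test and 4.44e-09 by DESeq2), and was the 1 gene of this group called by either test. This call was lost in edgeR without −dox replicate 1 (adjusted p = 0.55) or without −dox replicate 2 (adjusted p = 0.67), settings under which 0 genes of all were called. It was lost as well with the filterByExpr filter (adjusted p = 0.0186) and with adjusted deviances (adjusted p = 0.061). The genes with the next lowest p-values, Soat2 (1.51 and 1.58 CPM with dox, 2.42 and 2.47 CPM without) and Abca1, which exports cholesterol and responds to oxysterols, were not called. Abca1 had 40.4 and 31.4 CPM with dox and 25.3 and 30.9 CPM without, and its change was 0.67 in replicate 1 and 0.02 in replicate 2.

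Markers of other cells and states in the cultures differed with dox as well, the fibroblast markers mostly in +dox replicate 1. Because this is RNA from whole cultures, fewer cells of a type and less RNA per cell cannot be told apart. The summed level of 14 fibroblast markers was 1069 CPM in +dox replicate 1, 450 CPM in +dox replicate 2, and 352 and 366 CPM in the −dox libraries. Of the 14, 0 were at 0 reads in any library and 0 were called by edgeR at an adjusted p under 0.01. At an unadjusted p under 0.05, 11 were higher, against 8.48% of all genes. In both replicates 12 were higher with dox, while Fbn1 and Twist2 were lower in replicate 2 (log2 changes of -0.20 and -0.59). The summed level of 9 primitive streak markers was 35.2 and 36.5 CPM with dox and 157 and 182 CPM without. All 9 had a log2 fold change below 0. EdgeR called 6 of them lower at an adjusted p under 0.01, against 0.519% of all genes. The summed level of 10 ES cell markers was 6220 and 7039 CPM with dox and 5554 and 5999 CPM without. The part of these cells in the members' levels was not tested. Without +dox replicate 1, the library with the most fibroblast signal, the members' median log2 fold change was -0.42. All 7 members then had the remaining +dox library below both −dox libraries, a pattern that 35.4% of all genes showed. The largest shift was that of Idi1, from 0.02 to -0.45, with 48 reads in the +dox library kept. The others moved little, as Cyp51 from -0.48 to -0.42, Insig1 from -0.58 to -0.51, Sqle from -0.45 to -0.46 and Lss from -0.27 to -0.29. Srebf2 went from -0.18 to -0.20, and Fdft1 stayed at -0.18. The members' median was -0.35 without −dox replicate 2, -0.25 without +dox replicate 2 and -0.24 without −dox replicate 1.

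**Figure D5:**
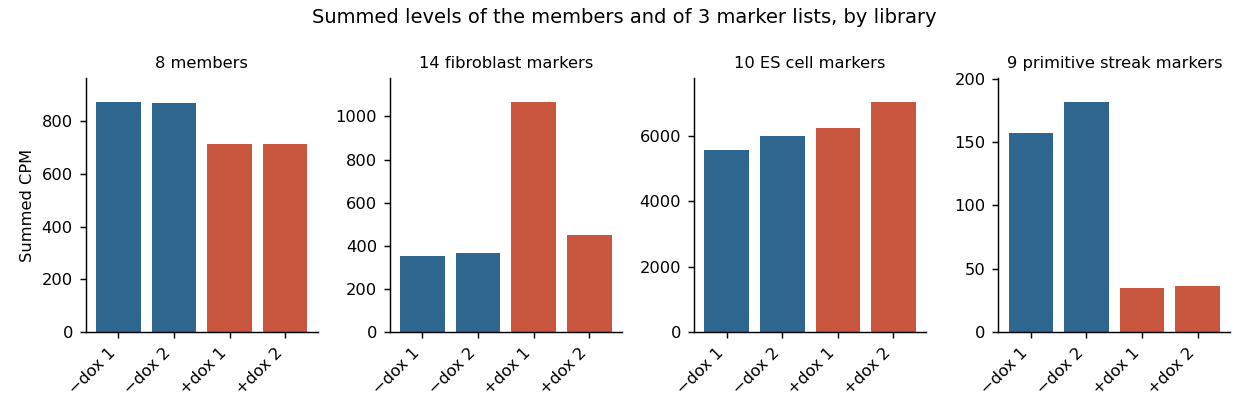
Summed CPM (vertical axes, from 0) of the 8 members and of 14 fibroblast, 10 ES cell and 9 primitive streak markers in each of the 2 −dox (blue) and 2 +dox (red) libraries. The members' sum, of which Srebf2 is the largest part, is 714 CPM in both +dox libraries. The fibroblast sum is highest in +dox replicate 1, and the streak sum is low in both +dox libraries.

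Genes with a pattern like the members' were sought among 9964 genes that averaged 10 CPM or more, by the Euclidean distance, over the 4 libraries, between a gene's centred log2 CPM and the mean centred profile of the 8 members, in which Hmgcs1 counts as flat. The 5 nearest were Zfp449, Sh3bp4, Ldha, Kpna4 and Bcl9, at distances from 0.0123 to 0.0226 on the log2 scale. Sh3bp4, for instance, had 107 and 101 CPM with dox and 125 and 126 CPM without. The 5 had log2 fold changes from -0.28 to -0.26 and adjusted p-values from 0.103 to 0.434 by edgeR's test, and 1 of them remained among the 5 nearest when Hmgcs1 was left out of the profile. None of these 5 is on the lists of sterol genes used here.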

How the data were processed

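Reads had been trimmed (cutadapt), aligned to mm9 (TopHat2), freed of PCR duplicates and, where unique, counted on exons (HOMER) by the authors, who deposited raw counts per gene in a table for each replicate number. Tool versions and strand use are not given in the sources used here. A transcript length in bases is deposited beside each count. The tables were joined by symbol, and 547 genes had another transcript in each.

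The 20044 genes with any read in any of the libraries were tested with edgeR 4.0.16 in R 4.3.3 (TMM, quasi-likelihood, two-sided, no block), with Benjamini-Hochberg adjustment over all of them and a threshold of 0.01, and with DESeq2 1.42.0. Standard errors and 95% intervals come from the edgeR F statistic, and single-replicate log2 changes use a prior count of 2. Both tests were tested on simulated data. The members and gene lists were chosen with earlier results of these data known, and some genes of the synthesis, control and uptake lists are not reported here, so counts over these lists cover the remaining genes. The genes named are the members, the genes of the synthesis, control and uptake lists, and, of other lists, those called by either test and the 3 with the lowest p-values. Second copies of transcripts were sought with minimap2 in NCBIM37 (at least 50% of the transcript at 90% identity or more). Alternatives were other tests, scalings, filters, a replicate block, a threshold of 0.05 and leaving out each library. ChIP-seq and Hi-C data were not analysed here. Nothing in the labels ties the replicates to separate dishes or days beyond their being called biological replicates in the study's methods.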

Additional observations from a re-analysis of the deposited data

How the results depend on the processing

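The members' calls depended on the test, while their direction did not, Idi1 excepted. Against 0 members called by edgeR, DESeq2 called 2, DESeq2 with the replicate block 1, edgeR with the replicate block 3 and edgeR at an adjusted p under 0.05 called 3, and leaving out each library gave 0 to 2. Of the synthesis list, edgeR called 0, DESeq2 1, edgeR with the replicate block 3, an adjusted p under 0.05 gave 2 and leaving out each library 0 to 2. Of the uptake list, edgeR called 0, against 1 with the replicate block, 1 at an adjusted p under 0.05, and 0 to 1 leaving out each library (1 without either +dox library). Of all genes, edgeR called 120, DESeq2 375, DESeq2 with the replicate block 264, edgeR with the replicate block 786, adjusted deviances 0, filterByExpr 11, an adjusted p under 0.05 gave 573, and leaving out each library 0 (without either −dox library) to 992 (without +dox replicate 1). The members' median log2 fold change was -0.31 with total counts and ran from -0.42 to -0.24 when each library was left out. The log2 fold change of Idi1 was 0.02, but -0.02 in DESeq2 with the replicate block, -0.01 in edgeR with the replicate block, -0.02 with total counts, and from -0.45 to 0.38 when each library was left out. The cause of these shifts was not tested. Alternatives for the uptake list, for Soat1 and for the count of members without overlap were chosen after seeing the data.

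Deviations from the condition means correlated at 0.196 across 13911 genes between libraries that share a replicate number, but with 2 pairs and no label of a shared day the numbers are not taken as pairs, so the block results are a hint from the data only. With 2 libraries a condition, the choice of test decided the calls of Sqle, Cyp51 and Insig1, while Fdft1, Lss, Srebf2 and Idi1 were called under none of the alternatives run, and Idi1, at 48 to 96 reads, is the least precise member.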

Other observations

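Fatty acid synthesis, which shares its control by SREBP proteins with cholesterol synthesis, was read from 15 genes. In 9 of them both +dox libraries were below both −dox libraries, against 23.7% of all genes, with a median log2 fold change of -0.19. EdgeR's quasi-likelihood test called 0 at an adjusted p under 0.01 and 6 had an unadjusted p under 0.05, all lower (against 9.31% of all genes). DESeq2 called 3, against 1.86% called lower of the 13826 genes that it gave an adjusted p. Acsl3, which activates long-chain fatty acids, fell from 49.8 and 61.1 CPM to 31.0 and 37.9 CPM (log2 fold change -0.69, adjusted p = 0.00341 by DESeq2 and 0.03 by edgeR). Scd2, a desaturase, fell from 207 and 290 CPM to 159 and 169 CPM (log2 fold change -0.60, adjusted p = 0.00494 by DESeq2 and 0.0341 by edgeR). On the same strand, Utp14b overlaps an exon of Acsl3 by up to 140 bases and AC123853.2 one of Scd2 by up to 61 bases. Part of these counts is therefore uncertain. Fads2, a desaturase of polyunsaturated fatty acids, fell from 63.7 and 62.2 CPM to 44.4 and 40.8 CPM (log2 fold change -0.56, adjusted p = 0.00241 by DESeq2 and 0.0257 by edgeR).

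Genes that use mevalonate products for other ends, such as prenylation, dolichol and ubiquinone, showed smaller differences. Over 9 such genes the median log2 fold change was 0.01, with values from -0.22 to 0.15, and 0 were called by edgeR or DESeq2 or had an unadjusted p under 0.05. The 3 with the lowest p were Coq2 (-0.22), which takes part in ubiquinone synthesis and has a second place on chromosome 6 that matched 95.5% of its transcript at 93.5% identity, and the prenyltransferase subunits Fnta (0.15) and Fntb (0.12). The gene Churc1 overlaps an exon of Fntb by up to 136 bases on the same strand. A test of the difference between these lists was not run.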
